A study of Mus musculus with 2 samples.

Results

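Stromal cells that held transcripts of both Cthrc1 and Wisp1 were described in single-cell RNA libraries of mouse perivascular adipose tissue, the fat that surrounds the aorta. A cell barcode was counted as mesenchymal where it had at least 500 detected genes, at most 10% mitochondrial transcripts, at least 10 unique molecular identifiers (UMIs, each standing for 1 captured transcript) of Col1a1, Col1a2 and Col3a1 together, and 0 UMIs of Pecam1, Cdh5, Ptprc, Upk3b, Sox10, Top2a and Mki67. Mesenchymal cells were chosen by their measured Cthrc1 and Wisp1 UMIs and called double-positive where they held at least 1 UMI of each of Cthrc1 and Wisp1 and at least 4 of both together. This gave 910 young and 396 old double-positive cells, 1306 of the 14104 mesenchymal cells and of 27740 barcodes in all. The comparison cells were the mesenchymal barcodes of the same library with 0 UMIs of both genes, 2586 young and 3355 old. Both libraries came from wild-type mice, 1 library from young and 1 from old animals, and held cells freed from the tissue by collagenase and labelled primary perivascular stromal cells. The title of the series links stromal cells of the SM22α lineage, named after the protein that Tagln encodes, to aneurysm of the abdominal aorta. Age in weeks, sex, the number of mice pooled, the aortic segment and whether cells were cultured are unknown from the sources used here. With 1 library per age there is no replicate, so no p-value is given, and all intervals below are 95% intervals that cover counting error only.

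Cthrc1 (collagen triple helix repeat containing protein) is a secreted glycoprotein made by fibroblasts and arterial wall cells after injury, and it has been tied to matrix remodelling and to planar polarity signalling by Wnt proteins. Wisp1, also called CCN4, is a secreted matricellular protein of the CCN family that was found as a target of Wnt signalling and is made by fibroblasts in healing and fibrotic tissue. Fibroblasts with high Cthrc1 are known from scars of the heart, lung and vessel wall, where they make much collagen. In the GENCODE vM21 annotation of mm10 (GRCm38), Cthrc1 lies on chromosome 15 from 39076932 to 39087121 and Wisp1 on the same chromosome from 66891320 to 66923201, both on the plus strand.

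The depth of the cells moved with their group. Double-positive cells had medians of 11083.5 (young) and 12497.5 UMIs (old), against 7416 and 7718 in the comparison cells, and the rule by its nature finds more cells where more transcripts were captured. Median detected genes were 2838 and 3162 in double-positive cells and 2228 and 2464 in comparison cells. Mitochondrial shares were close, with medians of 2.54% and 2.03% against 2.71% and 2.38%. Levels are therefore given as summed UMIs of a group scaled to a total of 1000000 UMIs (CPM), and each ratio was computed again with the comparison cells weighted, in 10 strata of UMI total, to the depth of the double-positive cells. That value is called depth-weighted below, and the part of depth in the other values was not tested further. The libraries shared 275 barcodes, among them 16 young and 7 old double-positive cells.

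The genes of the rule are given as a description. Double-positive cells held a median of 3 Cthrc1 UMIs in both libraries, with a highest value of 59 in the young and 23 in the old, and a median of 3 and 2 Wisp1 UMIs, with highest values of 29 and 15. Cthrc1 stood at 383.7 CPM in young and 297.7 CPM in old double-positive cells and Wisp1 at 309.0 and 199.9 CPM. Many members lay near the limit of the rule. Just inside it, 229 young and 120 old cells held exactly 4 UMIs of both genes together. Just outside it, 343 young and 194 old cells held both genes with 3 UMIs together.

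Double-positive cells were a smaller part of the mesenchymal cells in the old library. They made up 12.4% of young (11.6 to 13.1) and 5.87% of old mesenchymal cells (5.32 to 6.46), by exact Clopper-Pearson intervals. After each cell was thinned to 3000 UMIs, with 234 young and 82 old shallower cells left out, the shares were 1.98% (141 of 7122 cells, 1.67 to 2.33) and 0.570% (38 of 6666 cells, 0.404 to 0.782). Old double-positive cells were the smaller share with and without thinning, although the size of both shares depends on depth. Before the cell filters, 1694 young and 886 old barcodes met the Cthrc1 and Wisp1 limits. The step that removed most of them was the demand for 0 UMIs of Top2a and Mki67, genes of dividing cells, which left out 696 young and 348 old barcodes.

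The pair of genes tended to be found in the same cells. Among mesenchymal cells thinned to 3000 UMIs, Wisp1 was found in 27.4% of the 1688 young cells with a Cthrc1 UMI and in 19.2% of the 5434 without one. In the old library the shares were 20.4% of 872 and 14.7% of 5794 cells. UMIs of both genes were also found outside the mesenchymal cells, and whether free RNA gave them was not tested. In 34 young and 882 old barcodes with markers of endothelial, Schwann or immune cells and little collagen, thinned alike, Cthrc1 was found in 17.6% (6.76 to 34.5) and 7.14% (5.53 to 9.05), against 23.7% and 13.1% of mesenchymal cells. Wisp1 was found in 2.94% (0.0744 to 15.3) and 1.81% (1.04 to 2.93) of them, against 21.1% and 15.4% of mesenchymal cells. The Cthrc1 shares of mesenchymal cells were thus closer to those of the collagen-poor barcodes than the Wisp1 shares were. With 34 such barcodes the young Cthrc1 shares could not be separated.

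The stromal label was checked against fibroblast markers. All 16 genes of the fibroblastic stromal list had UMIs in double-positive cells of both libraries, with a summed level of 4505 CPM (young) and 6067 CPM (old), against 3933 and 5857 CPM in comparison cells. Decorin (Dcn), a small proteoglycan of collagen fibrils, stood at 81.9 CPM in young and 206.5 CPM in old double-positive cells, and at 123.2 and 291.4 CPM in comparison cells. Pdgfra, the platelet-derived growth factor receptor that marks fibroblasts, was the lowest member relative to comparison cells. It stood at 64.4 against 128.1 CPM in the young (log2 ratio -0.99, -1.11 to -0.87) and at 109.2 against 232.3 CPM in the old library (-1.09, -1.21 to -0.97), with depth-weighted values of -0.88 in both. Double-positive cells thus carried fibroblast genes, with less Pdgfra at equal total UMIs than comparison cells.

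Markers of other cell types were mostly scarce. Summed over each list, double-positive cells of the young and old library held 48.6 and 94.7 CPM of blood endothelial markers, 16.8 and 57.7 CPM of macrophage and monocyte markers, and 37.8 and 61.3 CPM of pericyte markers. Comparison cells held 42.4 and 75.4, 14.9 and 77.6, and 32.2 and 87.9 CPM of the same lists. Adipocyte markers summed to 1.53 and 11.6 CPM in double-positive and 4.63 and 28.6 CPM in comparison cells, Schwann cell markers to 5.85 and 9.21 against 14.5 and 7.95 CPM, and mesothelial markers to 29.1 and 20.3 against 30.9 and 23.5 CPM. The rule set Pecam1, Cdh5, Ptprc, Upk3b and Sox10 to 0 in both groups. The smooth muscle list was the one list of another cell type with an abundant sum, 4682 CPM in young and 4059 CPM in old double-positive cells against 3215 and 2572 CPM, and its members are described with the contractile genes.

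Relative to comparison cells, the double-positive cells of both libraries held more transcripts of Inhba, Tgfb1, Hbegf, Eln and Col5a3, genes of ligands and matrix, and fewer of Hp, Saa3, Cebpa, Lpl and Sfrp2, genes of the acute phase, of fat cells and of Wnt inhibition. At least 2-fold higher in the young library were 47 genes, 0.674% of the 6973 genes with a mean of 10 CPM or more, and 50 genes (0.717%) were at least 2-fold lower. In the old library 47 of 7342 genes (0.64%) were higher and 114 (1.55%) lower. Of the 6669 genes measured in both libraries, 20 were at least 2-fold higher in both (0.3%), 30 were lower in both (0.45%) and 0 were past 2-fold in opposite directions. The 20 were 52.6% of the genes higher in the young and 58.8% of those higher in the old library, and the 30 were 68.2% and 37.0% of the genes lower. With depth-weighted comparison cells, 16 genes were higher in both, 13 of them among the 20, and 10 were lower in both, 6 of them among the 30. The lower genes thus depended more on depth than the higher ones. Over all measured genes the median log2 ratio was 0.01 (young) and -0.03 (old).

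**Figure D1:**
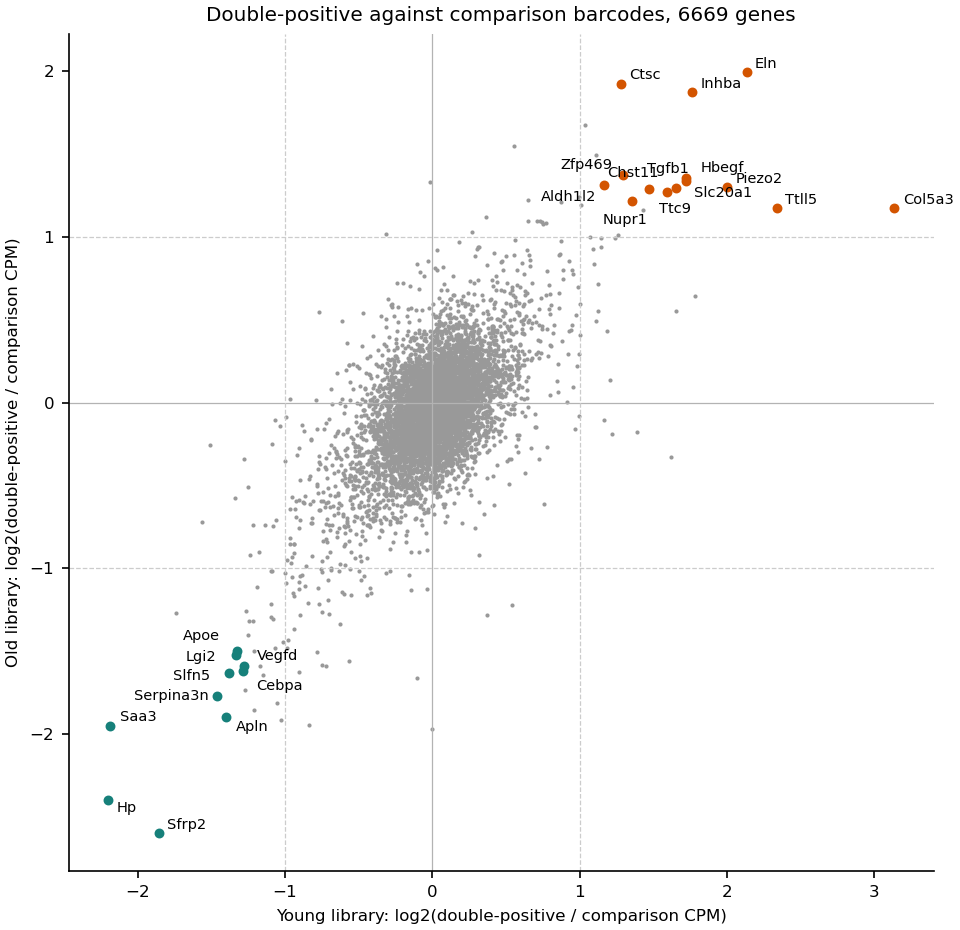
Each point is 1 of 6669 genes, with the log2 ratio of double-positive to comparison CPM in the young library on the x axis and in the old library on the y axis; dashed lines mark 2-fold. The 14 genes highest in both libraries (orange, named) lie in the upper right corner and the 10 lowest (green, named) in the lower left.

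The start regions of 4 of these genes are shown because the genes lie at the ends of that range, Inhba and Nupr1 among the highest and Saa3 and Sfrp2 among the lowest. The sequences are from RefSeq on GRCm38.p6, run from 250 bases before to 50 bases after the start of the gene, and are written 5′ to 3′ on the strand of the gene. Of the 24 genes highest or lowest in both libraries, 18 had such a region. Capitals mark matches to short binding motifs, searched on both strands.
Inhba, chr13:16011601-16011900, plus strand: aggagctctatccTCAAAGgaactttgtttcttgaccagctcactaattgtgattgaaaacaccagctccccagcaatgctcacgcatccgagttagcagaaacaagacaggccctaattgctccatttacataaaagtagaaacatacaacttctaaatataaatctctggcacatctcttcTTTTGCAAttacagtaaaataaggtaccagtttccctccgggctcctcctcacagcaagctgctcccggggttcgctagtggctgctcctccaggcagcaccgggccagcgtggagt
Nupr1, chr7:126625421-126625720, minus strand: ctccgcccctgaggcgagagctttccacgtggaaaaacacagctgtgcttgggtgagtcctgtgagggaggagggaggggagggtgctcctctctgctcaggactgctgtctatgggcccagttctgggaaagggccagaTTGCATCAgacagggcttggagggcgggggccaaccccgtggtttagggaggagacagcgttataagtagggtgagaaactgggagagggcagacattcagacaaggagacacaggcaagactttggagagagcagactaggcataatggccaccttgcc
Saa3, chr7:46715627-46715926, minus strand: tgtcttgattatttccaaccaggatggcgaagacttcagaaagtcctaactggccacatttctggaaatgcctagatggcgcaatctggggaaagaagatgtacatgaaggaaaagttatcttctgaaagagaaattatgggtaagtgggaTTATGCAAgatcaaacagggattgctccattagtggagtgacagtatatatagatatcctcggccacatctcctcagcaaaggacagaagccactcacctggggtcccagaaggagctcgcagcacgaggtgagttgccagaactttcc
Sfrp2, chr3:83766071-83766370, plus strand: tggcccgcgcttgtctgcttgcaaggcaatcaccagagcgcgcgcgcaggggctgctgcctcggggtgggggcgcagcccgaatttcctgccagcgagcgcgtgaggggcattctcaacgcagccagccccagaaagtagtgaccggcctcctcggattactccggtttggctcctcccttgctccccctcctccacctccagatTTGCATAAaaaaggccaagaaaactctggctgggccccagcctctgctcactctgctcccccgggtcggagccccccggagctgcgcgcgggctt
In Inhba the capitals mark a match to CTTTGA, a TCF/LEF motif of Wnt signalling that 16% of 32851 promoters of this length held, and a match to the C/EBP motif TTGCNNAA, held by 10.8%. Nupr1 held the composite C/EBP-ATF motif TGATGNAA, found in 3.97% of promoters, and Saa3 and Sfrp2 each held 1 match to TTGCNNAA. The other motifs searched had no match in these 4 windows and were TGANTCA for AP-1 (7.81% of promoters), GGAATG for TEAD (14.7%) and GTCTAGAC for a pair of SMAD sites (0.213%). The 4 windows shown each held a match and do not stand for the rest. Among the other genes, the windows of Tgfb1, Chst11, Ctsc, Ttll5, Serpina3n, Apln, Lgi2, Cebpa and Vegfd held no match to any motif searched. The remaining genes held matches, Slc20a1 to the TEAD motif, Ttc9 to TCF/LEF and C/EBP, and Col5a3 and Slfn5 to TCF/LEF. Apoe held matches to TEAD and C/EBP-ATF. A match describes the letters and is no evidence of binding.

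Inhba, Tgfb1 and Hbegf, genes of secreted ligands, were among the 14 highest in double-positive cells of both libraries. Inhba (chromosome 13, 16011851 to 16031621), which encodes the subunit of activin A, stood at 316.1 CPM in young double-positive and 93.1 CPM in young comparison cells, and at 1374 and 375.2 CPM in the old library. The log2 ratios were 1.76 (1.68 to 1.85) and 1.87 (1.83 to 1.92), and 1.36 and 1.53 when depth-weighted. Inhba was thus more than 2-fold higher in both libraries on either comparison. Tgfb1 (chromosome 7, 25687002 to 25705077), the ligand that induces matrix genes in fibroblasts, stood at 77.0 against 24.4 CPM in the young (1.66, 1.495 to 1.82) and 129.9 against 52.9 CPM in the old library (1.30, 1.17 to 1.43). In cells thinned to 3000 UMIs a Tgfb1 UMI was found in 18.7% of young double-positive and 6.84% of young comparison cells, and in 26.8% and 14.4% of the old. The share was higher in the collagen-poor endothelial, Schwann or immune barcodes, cell types that also make Tgfb1, at 47.1% (29.8 to 64.9) of 34 young and 32.5% (29.5 to 35.7) of 882 old barcodes, and the part of their RNA in these levels was not tested. Tgfb2, a related ligand, stood at 52.5 against 22.2 CPM (1.24, 1.06 to 1.42) and 45.9 against 23.1 CPM (0.99, 0.77 to 1.20). Hbegf, a ligand of the epidermal growth factor receptor, stood at 78.7 against 23.8 CPM (1.72) and 99.7 against 39.0 CPM (1.35), with a depth-weighted value of 0.94 in the old library, short of 2-fold. Pdgfc, a ligand of Pdgfra, was scarce in all groups, at 16.6 against 4.53 CPM (1.87) and 10.1 against 4.10 CPM (1.31). Tgfbr3, a co-receptor of TGF-beta, stood at 44.4 against 85.0 CPM (-0.94) and 90.6 against 163.8 CPM (-0.85).

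The list of growth factors and their receptors as a whole was not higher. Of its measured genes, 1 of 27 in the young library was at least 2-fold higher, Pdgfc, and 2 were lower, Vegfd and Gas6. In the old library 0 of 26 were higher and 8 were lower, and the medians were -0.08 and -0.06, or 0.06 and -0.01 when depth-weighted. The 8 were Pdgfra, Vegfd, Gas6, the ligands Fgf10 and Hgf, the binding proteins Igfbp3 and Igfbp4, and Angptl4, and 3 of the 26 were at least 2-fold lower when depth-weighted. Of the list of TGF-beta ligands, receptors and latent binding proteins, 3 of 14 measured genes were at least 2-fold higher in the young and 2 of 12 in the old library and 0 were lower, with list medians of 0.27 and -0.01. Genes known to respond to TGF-beta showed smaller differences, with 0 of 13 and 1 of 14 past 2-fold and medians of 0.29 and 0.11. The 1 gene was Il11, a cytokine that TGF-beta induces in fibroblasts, at 286.3 against 104.1 CPM in the old library (1.46, 1.37 to 1.55). In the young library Il11 was scarce, at 10.7 against 2.02 CPM (2.41). Pmepa1, a feedback inhibitor of TGF-beta signalling, stood at 367.6 against 184.9 CPM (0.99) and 262.9 against 162.1 CPM (0.70).

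**Figure D2:**
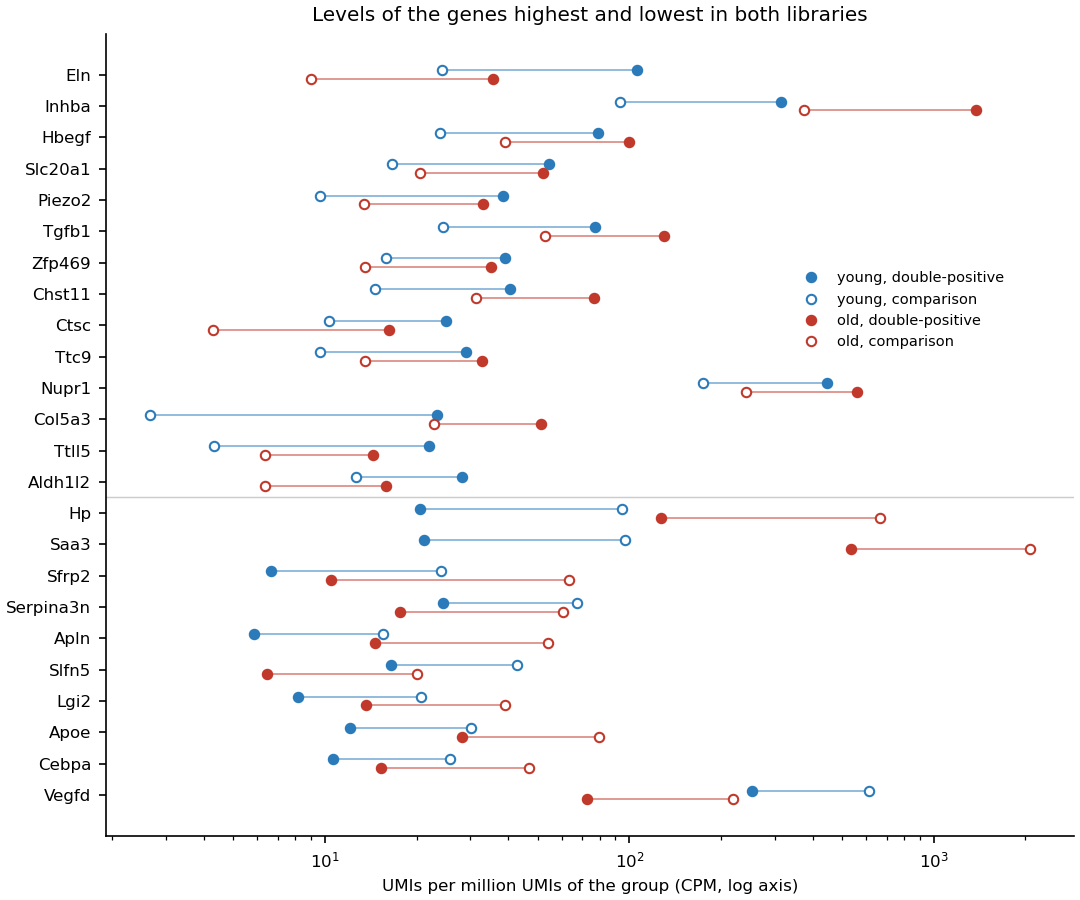
Levels in CPM on a log axis for the 14 genes highest (upper block) and the 10 lowest (lower block) in both libraries, with filled circles for double-positive and open circles for comparison cells, blue for the young and red for the old library. In the upper block each filled circle lies to the right of its open circle, and in the lower block to its left.

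Eln and Col5a3 were the genes of the extracellular matrix furthest above comparison cells in the young library, while the other measured fibrillar collagens stayed within 2-fold. Elastin (Eln, chromosome 5, 134702593 to 134747323), the core of elastic fibres, stood at 106.4 CPM in young double-positive and 24.2 CPM in young comparison cells, and at 35.7 and 8.97 CPM in the old library, with log2 ratios of 2.13 (1.98 to 2.29) and 1.99 (1.72 to 2.27). Eln was also read in cells thinned as for Tgfb1. In the young library 13.3% (11.2 to 15.7) of double-positive and 4.91% (4.08 to 5.84) of comparison cells held an Eln UMI. In the old library the shares were 4.55% (2.72 to 7.09) and 2.06% (1.61 to 2.61). These shares differed by a smaller factor than the levels in both libraries. The part of single cells with many Eln UMIs in the levels was not tested. Eln was the 1 gene of the elastic fibre list at least 2-fold higher in either library, of 13 and 11 measured. The list medians were -0.11 and -0.22, or 0.18 and 0.01 when depth-weighted. Efemp1, a fibulin of the same list, stood at 28.9 against 53.7 CPM (-0.90) and 31.3 against 76.1 CPM (-1.28). Col5a3, a minor fibrillar chain, stood at 23.4 against 2.66 CPM in the young (3.14, 2.71 to 3.59) and 51.4 against 22.8 CPM in the old library (1.17, 0.97 to 1.38). It was the 1 fibrillar collagen past 2-fold, of 7 and 6 measured, in lists with medians of 0.41 and 0.26, or 0.56 and 0.49 when depth-weighted. Col1a1 stood at 2663 against 1998 CPM (0.41) and 1979 against 1664 CPM (0.25), or at 0.76 and 0.58 when depth-weighted. Col3a1 stood at 1107.5 against 1172 CPM (-0.08) and 1031 against 1206 CPM (-0.23). The direction of Col3a1 turned with depth, to depth-weighted values of 0.22 and 0.28. The collagen filter of the rule applied to both groups.

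Postn (periostin), a matricellular protein of activated fibroblasts, stood at 87.7 against 39.7 CPM in the young (1.14, 1.01 to 1.28) and 135.4 against 68.2 CPM in the old library (0.99, 0.86 to 1.11). Col15a1, a basement membrane zone collagen, stood at 89.5 against 42.0 CPM (1.09) and 198.0 against 104.4 CPM (0.92), and Col6a3, of microfibrils, at 59.4 against 27.7 CPM (1.10) and 105.9 against 59.4 CPM (0.84). Depth-weighted values were 1.32 and 1.06 for Col15a1 and 1.23 and 0.89 for Col6a3. Aspn, a proteoglycan that binds collagen and TGF-beta, was scarce, at 9.99 against 5.03 CPM and 15.7 against 5.54 CPM. Its depth-weighted values were 2.08 and 1.99. On the list of small leucine-rich proteoglycans, to which it belongs, 1 of 5 young and 1 of 7 old values lay above 0, and the medians were -0.59 and -0.50, or -0.21 in both when depth-weighted. Itga11, a collagen-binding integrin of fibroblasts, stood at 16.4 against 8.13 CPM (1.01, 0.70 to 1.32) and 24.5 against 10.7 CPM (1.19, 0.89 to 1.49). Genes that process and crosslink collagen stayed within 2-fold, 23 of 23 measured in each library, with medians of 0.19 and 0.11, and the lysyl oxidase Loxl2 stood at 192.1 against 101.0 CPM (0.93) and 255.0 against 189.4 CPM (0.43). Depth-weighted values of Loxl2 were 1.02 and 0.53, and it was then the 1 of 23 past 2-fold, in the young library.

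On the list of activated fibroblast genes, 6 of 17 measured were at least 2-fold higher in the young and 1 of 15 in the old library, with medians of 0.38 and -0.06, the second turning to 0.09 when depth-weighted. When depth-weighted, 6 of 17 and 2 of 15 were at least 2-fold higher. Without the weighting Inhba was past 2-fold in both libraries. Postn, Ncam1, Kif26b, Nrep and Lrrc17 were past it in the young library. Ncam1, a cell adhesion molecule, stood at 129.1 against 41.0 CPM in the young (1.66) and 76.6 against 52.4 CPM in the old library (0.55). Fap and Lrrc15, which mark activated fibroblasts in tumours and scars, were near the limit of detection. Fap stood at 4.23 against 2.91 CPM and 5.71 against 4.03 CPM, and Lrrc15 at 1.71 against 0.10 CPM in the young library and 0.18 against 0.00 CPM in the old.

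The other genes highest in both libraries had varied roles. Nupr1, a stress-induced nuclear protein, stood at 445.8 against 174.0 CPM in the young (1.36, 1.29 to 1.42) and 560.8 against 241.7 CPM in the old library (1.21, 1.15 to 1.28), and its depth-weighted value in the old library was 0.96. Slc20a1, a phosphate transporter, stood at 54.5 against 16.6 CPM (1.72) and 52.0 against 20.6 CPM (1.34). Piezo2, a channel opened by mechanical force, stood at 38.5 against 9.61 CPM (2.003) and 33.2 against 13.5 CPM (1.30). These genes were 2-fold or more apart in both libraries, as were Chst11, a sulfotransferase of chondroitin chains (1.47 and 1.29), Zfp469, whose human counterpart is mutated in brittle cornea syndrome (1.30 and 1.37), and the protease cathepsin C, Ctsc (1.28 and 1.92). Ttc9 (1.59 and 1.27), the tubulin-modifying enzyme Ttll5 (2.34 and 1.17) and Aldh1l2, a mitochondrial enzyme of folate metabolism (1.16 and 1.31), completed the 14. Hbegf and Nupr1 were the 2 of these 14 that fell short of 2-fold in 1 library when depth-weighted.

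Contractile genes, among them Tagln, which encodes the SM22α of the title, were higher by less than 2-fold. Tagln stood at 1463 CPM in young double-positive and 1079.5 CPM in young comparison cells, and at 998.5 and 703.4 CPM in the old library, with log2 ratios of 0.44 (0.41 to 0.47) and 0.51 (0.46 to 0.55). Acta2, smooth muscle actin, stood at 2670.4 against 1766 CPM (0.60, 0.57 to 0.62) and 2654 against 1637 CPM (0.70, 0.67 to 0.72). Depth moved these values in the old library, where the depth-weighted ratios were 0.11 for Tagln and 0.24 for Acta2, against 0.39 and 0.59 in the young. Of the myofibroblast and contractile list, 17 of 19 measured genes in the young and 16 of 17 in the old library lay above 0, with medians of 0.36 and 0.38 and, when depth-weighted, 0.39 and 0.11. The 1 member past 2-fold was Actg2, a smooth muscle actin of visceral muscle, at 236.9 against 111.6 CPM in the old library (1.09), or 0.47 when depth-weighted. Myh11, the myosin of mature smooth muscle, was scarce in all 4 groups, at 12.96 against 10.8 CPM and 10.9 against 6.45 CPM. Whether smooth muscle cells or their RNA take part in these values was not tested.

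Genes of the acute-phase response and complement were lower in double-positive cells. Hp (haptoglobin, chromosome 8, 109575128 to 109579172), which binds free haemoglobin, stood at 20.6 CPM in young double-positive and 94.7 CPM in young comparison cells, and at 126.7 and 667.0 CPM in the old library, with log2 ratios of -2.20 (-2.40 to -2.001) and -2.40 (-2.51 to -2.29). Saa3 (serum amyloid A, an acute-phase protein) stood at 21.1 against 96.5 CPM (-2.19, -2.39 to -1.99) and 535.7 against 2067 CPM (-1.95, -2.003 to -1.89). Both were much closer to comparison cells of the same depth, with depth-weighted values of -1.09 and -1.54 for Hp and -1.17 and -0.98 for Saa3. Saa3 was also read in cells thinned as for Tgfb1. In the young library 5.05% (3.72 to 6.69) of double-positive and 6.72% (5.75 to 7.79) of comparison cells held a Saa3 UMI. In the old library the shares were 57.1% (52.0 to 62.0) and 70.5% (68.9 to 72.1). The young shares had overlapping intervals and did not match the young difference in level. The part of single cells with many Saa3 UMIs in that difference was not tested. Serpina3n, a serine protease inhibitor, stood at 24.4 against 67.1 CPM (-1.46) and 17.7 against 60.4 CPM (-1.77). On the list, 4 of 7 measured genes in the young and 9 of 12 in the old library were at least 2-fold lower and 0 higher, with medians of -1.01 and -1.19. When depth-weighted, 2 of 7 and 2 of 12 were, with medians of -0.68 and -0.76. The complement inhibitor Serping1 stood at 49.6 against 100.2 CPM (-1.01) and 133.9 against 365.0 CPM (-1.45), with depth-weighted values of -0.50 and -0.94.

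Genes of fat cell commitment were also lower. Cebpa, a transcription factor that drives fat cell differentiation, stood at 10.6 against 25.8 CPM in the young (-1.28, -1.58 to -0.99) and 15.3 against 47.0 CPM in the old library (-1.62, -1.96 to -1.30). Lpl, the lipase that releases fatty acids from lipoproteins, stood at 137.0 against 330.0 CPM (-1.27, -1.35 to -1.19) and 127.8 against 425.2 CPM (-1.73, -1.85 to -1.62). Fabp4, a fatty acid carrier, stood at 89.2 against 197.5 CPM (-1.15) and 68.3 against 213.5 CPM (-1.64), and Apoe, a lipid transport protein, at 12.1 against 30.2 CPM (-1.32) and 28.2 against 79.6 CPM (-1.50). These 4 genes were past 2-fold in both libraries. On the list, 5 of 14 measured genes in the young and 5 of 16 in the old library were lower, with medians of -0.55 and -0.44. The 1 member at least 2-fold higher was Col15a1, in the young library, and in both libraries when depth-weighted. Depth-weighted, 1 of 14 and 3 of 15 were at least 2-fold lower, and Cebpa stood at -0.97 and -1.09 and Lpl at -0.91 and -1.05. Pparg, the master regulator of fat cells, was scarce, at 3.96 against 4.88 CPM and 6.82 against 14.8 CPM.

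Among secreted inhibitors of Wnt signalling, Sfrp2 was lower in both libraries. Sfrp2 (chromosome 3, 83766321 to 83774316), which binds Wnt proteins, stood at 6.66 against 24.1 CPM in the young (-1.85, -2.23 to -1.50) and 10.5 against 63.4 CPM in the old library (-2.60, -3.002 to -2.21). Sfrp1, its relative, stood at 211.9 against 417.8 CPM (-0.98, -1.05 to -0.91) and 227.1 against 612.1 CPM (-1.43, -1.51 to -1.35). Frzb stood at 9.81 against 15.6 CPM (-0.67) and 21.0 against 33.6 CPM (-0.68). Depth-weighted values were -1.15 and -1.49 for Sfrp2, -0.70 and -0.999 for Sfrp1, which fell short of 2-fold in both libraries, and -1.41 and -0.88 for Frzb. Of the measured inhibitors, 1 of 4 in the young and 2 of 5 in the old library were at least 2-fold lower and 0 higher, with medians of -0.82 and -0.68 and depth-weighted medians of -0.92 and -0.88. When depth-weighted, 2 of 4 and 1 of 5 were at least 2-fold lower. Kremen1, a receptor for Dkk inhibitors, lay on the other side at 11.0 against 8.77 CPM (0.32) and 14.2 against 10.5 CPM (0.43).

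Targets of Wnt and beta-catenin with enough transcripts to be measured showed no shared difference of that size. Of 6 young and 5 old measured targets 0 were past 2-fold, with medians of 0.10 and 0.11, or -0.12 and -0.14 when depth-weighted. Axin2, the most used target gene, had too few transcripts for a ratio in the old library, at 0.00 against 0.28 CPM, and stood at 4.14 against 0.89 CPM in the young. Nkd1, a feedback inhibitor, stood at 19.0 against 36.9 CPM (-0.96) and 7.18 against 14.05 CPM (-0.97). Among receptors and planar polarity genes 0 of 12 were past 2-fold in the young library. In the old library 1 of 15 was, the receptor Fzd4, at 15.5 against 31.9 CPM (-1.04). Of the CCN family, to which Wisp1 belongs, Ctgf (CCN2) stood at 316.2 against 171.2 CPM (0.89) and 74.6 against 44.6 CPM (0.74), while Wisp2 differed little, at 316.9 against 305.1 CPM (0.05) and 358.7 against 367.3 CPM (-0.03).

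Some other secreted signals were lower too. Others were higher when depth-weighted, among them Igf1 (1.04 and 0.83), Cxcl14 (0.93 and 0.72) and the scarce Cx3cl1 (1.17 and 1.07). Vegfd, a growth factor of lymphatic vessels, stood at 252.4 against 611.4 CPM in the young (-1.28, -1.34 to -1.22) and 72.6 against 218.4 CPM in the old library (-1.59, -1.74 to -1.44), and was past 2-fold in both when depth-weighted (-1.14 and -1.29). Gas6, a ligand of the receptor Axl, stood at 122.8 against 261.8 CPM (-1.09) and 125.1 against 290.7 CPM (-1.22), with depth-weighted values of -0.95 and -0.67, short of 2-fold. Cxcl12, a chemokine made by stromal cells, stood at 572.6 against 1022 CPM (-0.84) and 610.1 against 2345 CPM (-1.94), but its depth-weighted values were -0.40 and -1.17. Of the chemokines and cytokines, 0 of 11 measured genes in the young library were at least 2-fold higher and 3 lower. In the old library 2 of 18 were higher and 4 lower. When depth-weighted, 0 were higher and 1 lower in the young, and 3 higher and 1 lower in the old library. Apln, a peptide ligand of the apelin receptor, stood at 5.85 against 15.5 CPM (-1.40) and 14.6 against 54.1 CPM (-1.90). Slfn5 (-1.38 and -1.63) and Lgi2 (-1.33 and -1.52) completed the 10 lowest genes. Of those 10, Hp, Sfrp2, Serpina3n, Apln and Vegfd were at least 2-fold lower in both libraries when depth-weighted, and the other 5 were not.

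**Figure D3:**
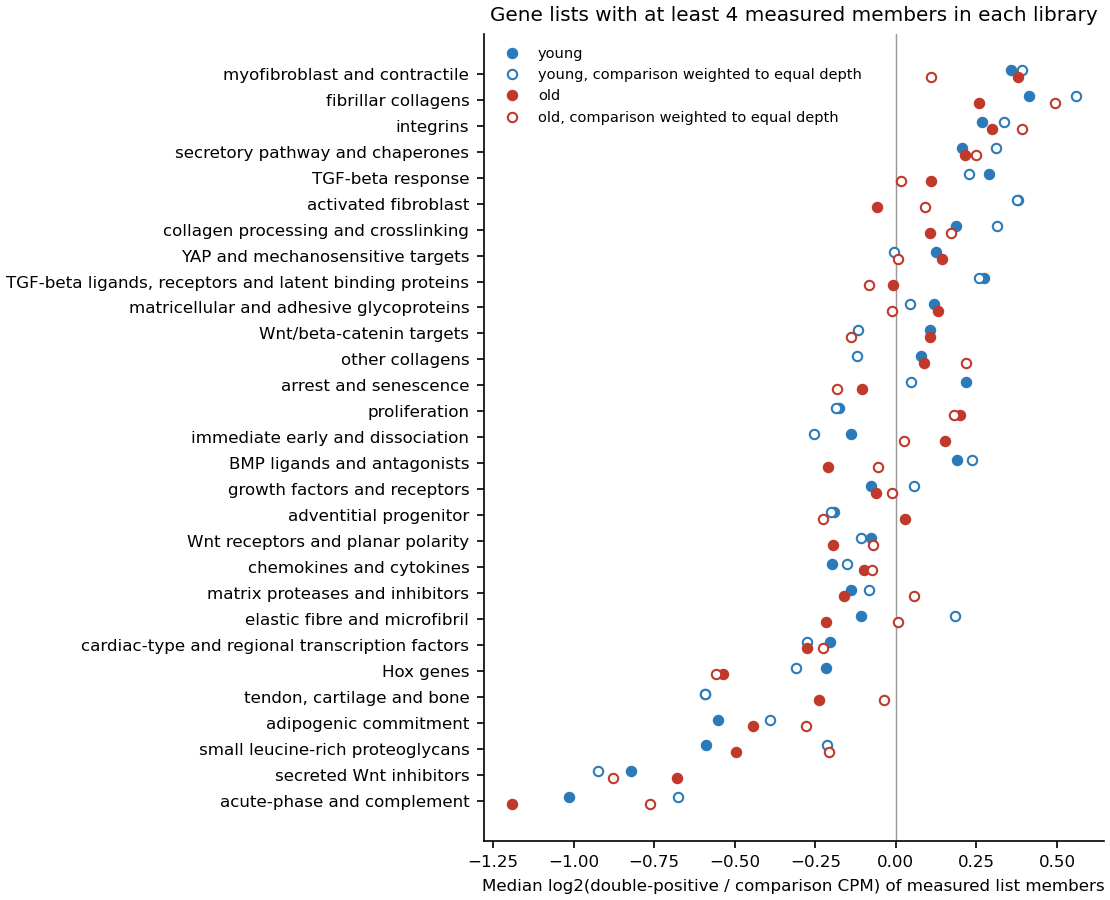
Median log2 ratio of double-positive to comparison CPM for 29 gene lists with at least 4 measured members in each library, in blue for the young and red for the old library; open circles give the depth-weighted medians. Contractile genes, fibrillar collagens and integrins lie on the right, and acute-phase, Wnt inhibitor and fat cell lists on the left.

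Lists that could mark handling or the cell cycle showed few differences. Of the immediate early and dissociation genes 0 of 23 and 0 of 24 measured were past 2-fold, with medians of -0.14 (young) and 0.15 (old). Proliferation genes likewise had 0 of 15 and 0 of 14 past 2-fold, in cells chosen to lack Top2a and Mki67. Genes of the secretory pathway, through which collagens leave the cell, lay above 0 in 23 of 25 young and 22 of 25 old values, with medians of 0.20 and 0.22, and 1 of them, the transcription factor Creb3l2, was past 2-fold in the young library at 72.7 against 36.4 CPM. Hox genes lay below 0 in 8 of 8 young and 12 of 12 old values, with medians of -0.22 and -0.54 and none past 2-fold. Among the genes of adventitial progenitors, Ly6a (Sca-1) stood at 59.7 against 150.9 CPM in the young (-1.34) and 225.3 against 336.0 CPM in the old library (-0.58), and Pi16 at 0.81 against 0.99 CPM and 39.8 against 63.8 CPM (-0.68). In the young library 2 of 8 measured genes of the list were at least 2-fold lower and 0 higher, with a median of -0.19. In the old library 0 of 13 were lower, 7 lay above 0 and the median was 0.03. At equal depth the libraries were alike, with depth-weighted medians of -0.20 (young) and -0.23 (old). Depth-weighted, 1 of 7 young and 0 of 13 old genes were at least 2-fold lower. The 1 gene higher in the old library was Igfbp5, with depth-weighted values of -0.20 (young) and 1.06 (old).

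Many of these genes shifted step by step with the number of Cthrc1 and Wisp1 UMIs in the cell. Double-positive cells were split into those with 4 to 5 UMIs of both genes together (390 young and 202 old), 6 to 9 (274 and 137) and 10 or more (246 and 57). In the young library Tgfb1 stood at 24.4 CPM with both genes at 0 and at 39.8, 63.0 and 136.3 CPM over the 3 steps, and Col5a3 at 2.66 and then 6.72, 16.1 and 51.0 CPM. Lpl went the other way, from 330.0 CPM to 214.0, 117.5 and 60.1 CPM, and Pdgfra from 128.1 to 89.9, 62.1 and 35.2 CPM. In the old library Lpl stood at 425.2 and then 145.4, 121.4 and 92.8 CPM and Eln at 8.97 and then 20.4, 27.5 and 96.1 CPM. Tgfb1 (84.6, 177.5 and 153.9 CPM) and Inhba (912, 1814 and 1723 CPM) did not go on to a higher level at the last step there. Median UMIs went up over the same steps, from 10111.5 to 11196.5 and 13105.5 (young) and from 11694.5 to 12785 and 13650 (old), so the steps also differ in depth. Eln, Inhba, Tgfb1 and Col5a3 were named for their difference between double-positive cells and cells with both genes at 0. For these genes the first step repeats that difference.

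Levels were also read in cells with 4 or more UMIs of 1 gene and 0 of the other. There were 229 young and 100 old cells with Cthrc1 only and 114 and 85 with Wisp1 only. Eln was higher with Cthrc1 only in the young library, at 88.8 CPM against 30.2 CPM with Wisp1 only, while in the old library it was low in both, at 6.62 and 6.07 CPM. Inhba was higher with Wisp1 only, at 237.9 against 113.3 CPM in the young and 1890.2 against 784.9 CPM in the old library. Nupr1 (307.8 against 221.0 and 781.7 against 461.2 CPM) and Hbegf (45.2 against 24.9 and 182.0 against 77.8 CPM) followed the same order. Lpl and Sfrp2 were below the level of cells with 0 of both genes in either set, as Lpl shows with 116.4 and 183.1 CPM against 330.0 CPM in the young library. Cells with Cthrc1 only had a lower median depth than those with Wisp1 only, 8982 against 11459 UMIs (young) and 10934 against 11864 UMIs (old). These levels were not depth-weighted, and the part of depth in them was not tested.

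**Figure D4:**
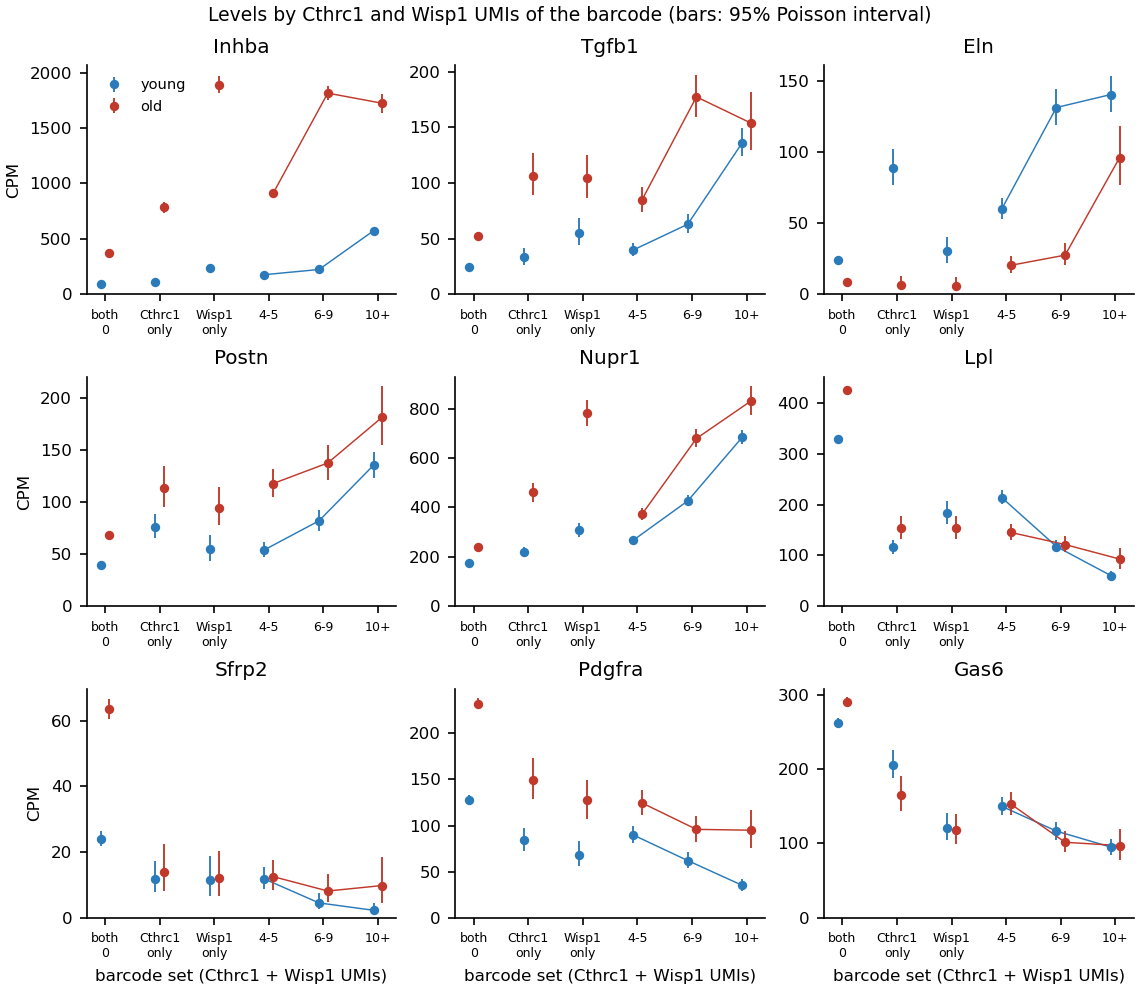
CPM of 9 genes in cells with 0 UMIs of both Cthrc1 and Wisp1, in cells with 1 of the genes only, and in double-positive cells by their summed UMIs (4 to 5, 6 to 9, 10 or more), in blue for the young and red for the old library, with 95% Poisson intervals. Tgfb1, Postn and Nupr1 stand higher and Lpl, Pdgfra and Gas6 lower in double-positive cells than where both genes are at 0.

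Across all mesenchymal cells thinned to 3000 UMIs, the genes most alike in pattern to the sum of Cthrc1 and Wisp1 were Col1a1, Sparc, Pmepa1, Inhba, Col1a2, Timp1, Kdelr2 and Nupr1. The measure was Spearman's rho over 7122 young and 6666 old cells and 6607 genes, and the values were weak. Col1a1 had the highest, 0.17 (young) and 0.10 (old). Sparc, a collagen-binding matricellular protein, stood at 4622 against 3466 CPM in double-positive and comparison cells of the young library (0.42) and at 6284 against 4869 CPM in the old (0.37). Timp1, an inhibitor of matrix proteases, stood at 3374 against 2204 CPM (0.61) and 5541 against 3697 CPM (0.58).

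Between the libraries, double-positive cells differed about as much as comparison cells did. In old against young double-positive cells, 304 of 5009 genes (6.07%) were at least 2-fold higher and 98 (1.96%) lower, and in comparison cells 323 (6.34%) and 118 (2.32%) of 5092, with median log2 ratios of 0.09 and 0.14. The 8 genes highest in old over young double-positive cells were the chemokines Cxcl1, Cxcl2, Cxcl3, Cxcl5 and Ccl11, and Camp, Nppc and Gm13889. Camp stood at 0.18 CPM in young and 44.2 CPM in old double-positive cells, and Gm13889 at 0.72 and 78.5 CPM. Cxcl1, which attracts neutrophils, stood at 15.7 CPM in young and 3351 CPM in old double-positive cells (log2 7.73, 7.52 to 7.96), and at 32.3 and 3699 CPM in comparison cells. In the old library its transcripts were also found outside the mesenchymal cells. Thinned to 3000 UMIs, 84.6% (82.0 to 86.9) of the 882 old collagen-poor endothelial, Schwann or immune barcodes held a Cxcl1 UMI, against 92.9% of old double-positive and 97.0% of old comparison cells, and the part of free RNA in its level was not tested. Cxcl5, with a like role, stood at 10.6 and 1882 CPM, against 31.4 and 3104 CPM in comparison cells. Cxcl2 had 0 UMIs in young and 191.4 CPM in old double-positive cells, at least 709-fold higher when the young group is set to 3 UMIs, and its old level in comparison cells was 91.3 CPM. Of the list of chemokines and cytokines, 12 of 15 measured genes were at least 2-fold higher in old double-positive cells, and 15 of 17 in old comparison cells. The age of the mice cannot be told apart from the library.

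Among the genes lower in old double-positive cells, Col11a1, a fibrillar collagen of low abundance, stood at 91.4 CPM in young and 5.53 CPM in old double-positive cells (-4.05, -4.62 to -3.53), and at 46.7 and 4.34 CPM in comparison cells. Ctgf stood at 316.2 and 74.6 CPM (-2.08, -2.24 to -1.93), and at 171.2 and 44.6 CPM in comparison cells. Cemip, which breaks down hyaluronan, stood at 446.5 and 90.1 CPM (-2.31), against 621.4 and 145.3 CPM. Lbh, a transcriptional regulator, stood at 306.9 and 67.6 CPM (-2.18), against 390.4 and 47.2 CPM in comparison cells (-3.05). Igfbp3, which binds insulin-like growth factors, stood at 48.1 and 11.1 CPM (-2.12), against 74.1 and 27.9 CPM (-1.41). The old library was the lower one for these genes in both kinds of cell.

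**Figure D5:**
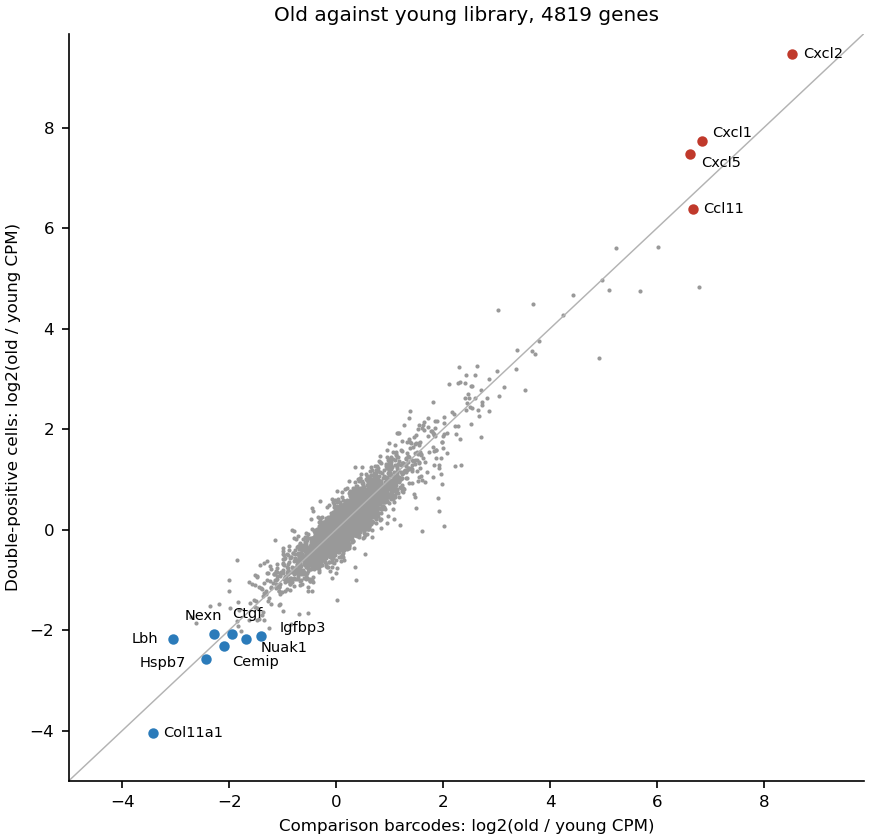
Each point is 1 of 4819 genes, with log2 of old over young CPM in comparison cells on the x axis and in double-positive cells on the y axis; the line marks equal values, and named genes are the highest (red) and lowest (blue) in double-positive cells. Cxcl2 had 0 UMIs in young double-positive cells and is drawn with 3 UMIs there, so that its y value is a lower bound.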

How the data were processed

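Single-cell RNA libraries of perivascular stromal cells from young and old mice were used, 1 library per age. The authors deposited UMI counts per gene and barcode with no normalization, written by Cell Ranger 3.0.1 per the file headers, on mm10 per the submitters' processing notes. Library preparation used the 10x Genomics Chromium 3′ kit per the labels' protocols. No source used here gives the annotation release or the rule for keeping barcodes. The files held 13104 young and 14636 old barcodes with 130398999 and 147166475 UMIs, and 12755 and 13711 barcodes passed the cell filter. Of 31053 genes 30934 were found in GENCODE vM21 by identifier.

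UMIs were summed over the cells of a group and scaled to CPM. Log2 ratios carry exact conditional Poisson intervals, and a group with 0 UMIs was set to a floor of 3, with no ratio where both groups had 3 or fewer. Ratios were read for genes with a mean of at least 10 CPM over the groups (20 CPM between libraries), and a gene was called past 2-fold. Lists were described by the count of measured members called and their median. The computation was tested on simulated data. Scrublet, run in scanpy 1.11.5, marked 0 barcodes with its automatic threshold, so doublets were kept, and leaving out the highest scores (0.8% per 1000 barcodes, 1302 young and 1504 old) was an alternative. These scores took in 12.5% of young double-positive and 5.72% of young comparison cells, and 9.34% and 7.81% of the old. Shares were also computed after thinning to 3000 or 5000 UMIs.

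Named genes were the 14 highest and 10 lowest by the less extreme of the libraries, the 8 highest and 8 lowest between old and young, up to 5 members of each list with the largest mean ratio and at least 5 CPM, 8 genes most alike in pattern, and a short fixed set. Mitochondrial, ribosomal, haemoglobin, immunoglobulin and sex-marker genes were left out of the ranking. The members and the lists were chosen with earlier results of these data known. Genes that share reads with close paralogs, such as Serpina3n, Saa3 and Ly6a, can be split by the counting. Intervals and floors cover counting error only. Alternatives were other UMI limits, depth weighting, equal weight per cell, median-of-ratios scaling, other expression and cell filters, all other mesenchymal cells as comparison, dividing cells allowed and other folds; leaving out barcodes present in both libraries was added after seeing the data. Python 3.11.15 was used with numpy, scipy and pandas.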

Additional observations from a re-analysis of the deposited data

Results flagged for a closer look

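Spry1, an inhibitor of growth factor signalling, was the 1 gene of 6669 measured in both libraries that differed by at least 1.5-fold in opposite directions between double-positive and comparison cells. Its log2 ratio was 0.76 in the young library (34.6 against 20.4 CPM) and -0.61 in the old (17.3 against 26.5 CPM). The difference between the libraries was not tested, since each age has 1 library.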

How the results depend on the processing

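The counts of genes at least 2-fold higher and lower were 47 and 50 in the young library, 47 and 114 in the old and 20 and 30 in both. With depth-weighted comparison cells the genes lower became 33, 42 and 10. With at least 6 UMIs of Cthrc1 and Wisp1 together, 90 and 134 genes were higher and lower in the young library, 86 were higher in the old, and 31 and 59 in both. A mean of at least 30 CPM gave 18 and 19, 22 and 55, and 7 and 14, and no filter on low values gave 484 and 851, 974 and 819, and 137 and 193, since fewer or more genes were then measured. With all other mesenchymal cells as comparison, 22 young genes were lower, 22 and 68 old genes were higher and lower, and 11 and 15 in both. A limit of 1.5-fold gave 187 and 248, 194 and 358, and 68 and 133, and of 3-fold 17 and 5, 6 and 28, and 2 and 3. Between old and young double-positive cells, 304 higher and 98 lower genes became 1361 and 953 without the filter, 766 and 322 at 1.5-fold and 121 and 28 at 3-fold. Shares were 21.9% young and 12.1% old at 2 UMIs of the pair, 7.07% and 2.87% at 6, 1.98% and 0.570% when thinned to 3000 UMIs, and 4.83% and 1.43% when thinned to 5000. Beyond what a setting changes by its own construction, the cause was not tested. No named gene or list past 2-fold changed sign under any alternative. Of the 14 highest genes 12 stayed past 2-fold in both libraries when depth-weighted and 8 with all other mesenchymal cells as comparison, and of the 10 lowest 5 and 9.

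No paired analysis was possible because each age has 1 library. For the same reason leaving out a library was not possible. Doublets that remain, the loss of cells in the digest and free RNA limit what the levels show, and the depth limits what can be said of genes under 10 CPM. The old library held fewer double-positive cells, so its levels rest on fewer UMIs.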

Other observations

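Some single genes for the synthesis and uptake of amino acids, chosen after their values were seen, are given here with others of like role that differed less. Mthfd2, a mitochondrial enzyme of folate metabolism, stood at 110.2 against 46.0 CPM in the young (log2 1.26, 1.14 to 1.39) and 98.4 against 48.9 CPM in the old library (1.01, 0.86 to 1.15). Slc7a5, a transporter of large neutral amino acids, stood at 57.4 against 21.3 CPM (1.43) and 42.7 against 19.1 CPM (1.16). Asns, the asparagine synthetase, stood at 75.6 against 44.3 CPM (0.77) and 90.1 against 42.5 CPM (1.08), and Phgdh, the first enzyme of serine synthesis, at 117.9 against 75.1 CPM (0.65) and 84.7 against 39.7 CPM (1.09). Trib3, a stress-induced pseudokinase, stood at 15.7 against 3.94 CPM (1.999) and 19.3 against 7.57 CPM (1.35). Depth-weighted values in the old library were 0.79 for Mthfd2, 0.78 for Slc7a5, 0.76 for Asns and 0.64 for Phgdh, so these 4 fell short of 2-fold there. Psat1, an enzyme of serine synthesis, stood at 143.4 against 92.7 CPM (0.63) and 88.8 against 55.7 CPM (0.67), with depth-weighted values of 0.50 and 0.22. Slc3a2, the partner chain of Slc7a5, stood at 95.6 against 87.5 CPM (0.13) and 201.4 against 146.8 CPM (0.46). Slc7a11, the cystine transporter, stood at 16.7 against 7.34 CPM (1.19) and 114.8 against 85.1 CPM (0.43, or 0.15 when depth-weighted), and Shmt2, which makes glycine from serine, at 32.7 against 17.7 CPM (0.88) and 38.5 against 29.7 CPM (0.37, or 0.21 when depth-weighted).

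Jag1 and Hey1 were also chosen after their values were seen. Jag1, a ligand of Notch receptors, stood at 34.1 against 17.1 CPM in the young (1.00, 0.78 to 1.21) and 27.4 against 11.6 CPM in the old library (1.24, 0.95 to 1.52). Hey1, a transcription factor that Notch induces, stood at 3.24 against 0.94 CPM (1.79) and 19.5 against 3.82 CPM (2.35, 1.95 to 2.75). The receptor Notch3 stood at 10.5 against 12.3 CPM (-0.23) and 17.3 against 24.3 CPM (-0.49), with depth-weighted values of 0.13 and 0.04.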
